A study of Mus musculus with 8 samples.

Results

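The miR-200 family comprises 5 mouse miRNAs (mmu-miR-200a, mmu-miR-200b, mmu-miR-200c, mmu-miR-141 and mmu-miR-429, written without the species prefix from here on), which were chosen by name among the 567 mouse miRNAs of the array, and all 5 had probes. The samples were dendritic cells grown from bone marrow of C57BL/6 mice, an inbred laboratory strain, in the presence of 40 ng/ml GM-CSF, a myeloid growth factor, and harvested on day 9 as the fraction that did not adhere. Of the 8 samples, 4 then received 10 µM ODN1826 overnight, a class B CpG oligonucleotide sensed by the receptor TLR9, and 4 were left untreated. The labels describe the untreated control as medium alone in one place and as PBS in another, list no control oligonucleotide, and leave unsaid whether each replicate was its own animal or culture. All p-values therefore rest on the spread among these arrays, which may be technical. Each sample's total RNA was labelled with Cy3 and read on 1 of the 8 arrays of 1 slide.

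The family is known from epithelial cells, where its members bind the mRNAs of Zeb1 and Zeb2, transcriptional repressors of E-cadherin, while the ZEB proteins in turn repress the miR-200 genes. The genes lie in 2 clusters, miR-200b, miR-200a and miR-429 on chromosome 4 and miR-200c and miR-141 on chromosome 6, and each cluster is known to be transcribed as a unit. A miRNA recognises its mRNAs mainly through the seed, bases 2 to 8 from its 5′ end, and the family has 2 seeds. The RefSeq sequences (GRCm38.p6, minus strand, 5′ to 3′, seed in capitals) are shown because the members differ at few bases, which bears on what an array can tell apart. The first 3 share one seed and the last 2 the other, which differ by the substitution U4C, counted from the 5′ end.
miR-200b: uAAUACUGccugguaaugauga
miR-200c: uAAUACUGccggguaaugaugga
miR-429: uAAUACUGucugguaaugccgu
miR-200a: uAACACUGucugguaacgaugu
miR-141: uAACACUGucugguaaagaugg
The most alike sequences come from different clusters. miR-200b and miR-200c were identical at 20 of 22 bases (U11G and A22G), as were miR-200a and miR-141 (C17A and U22G). Members of the same cluster matched at 18 of 22 bases.

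The mature miR-200b lies at chr4:156055685-156055706, miR-200a at chr4:156054911-156054932 and miR-429 at chr4:156053916-156053937, each within its own RefSeq miRNA gene (Mir200b, Mir200a and Mir429). On chromosome 6, miR-200c lies at chr6:124718324-124718346 in Mir200c and miR-141 at chr6:124717917-124717938 in Mir141. The array carried 2 probes for each member, whose targets its annotation (mm9) gives as spans that start at a shared coordinate and differ in length by 1 base. The distances between these starts equalled the distances between the lower ends of the mature miRNAs in RefSeq for all 4 pairs of members on one chromosome, so that on the minus strand each target would run back from the 3′ end. For the 3 members that were detected, the bases within the longer target are in capitals here.
miR-200b: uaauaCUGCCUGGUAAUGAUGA
miR-200c: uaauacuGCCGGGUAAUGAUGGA
miR-141: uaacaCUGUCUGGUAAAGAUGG

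The labelled cell type was checked against its miRNAs. All 8 listed dendritic and myeloid miRNAs, such as miR-21 and miR-155, were detected on every array, and their summed signal was 23628 to 43208 units on the CpG arrays and 16556 to 19109 on the untreated arrays. The 75th percentile of signal over the 177 miRNAs detected on all arrays (31.2% of 567) was 157 to 280.5 units on the CpG arrays and 101 to 144 on the untreated arrays, a 1.74-fold difference of geometric means (exact two-sided permutation p = 0.0286, the smallest that 4 against 4 arrays allow). The summed signal of the listed miRNAs mainly reflects miR-21, whose mean stood 6.68 with CpG and 6.79 untreated above that percentile in log2 units. The family's processed signals were no higher than 10.4 units on any array. Endothelial (2) and erythroid (2) miRNAs were detected on no array, and of the 5 stromal miRNAs on the array only miR-10b was detected, on 1 CpG array.

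Detection by the deposited flag differed between the clusters. miR-200b was detected on 4 of 4 CpG and 4 of 4 untreated arrays, whereas its cluster partners miR-200a and miR-429 were detected on 0 of 8. miR-200c and miR-141 behaved alike, each detected on 4 of 4 CpG arrays and on 1 of 4 untreated arrays, the same one for both (untreated replicate 2). The counts depended on the rule. With at least 50% of spots over both probes well above background, miR-200c and miR-141 were detected on 0 CpG and 0 untreated arrays. miR-200b was then detected on 1 CpG and 2 untreated arrays. For these 3 the probe with the shorter target had 0 such spots. This rule therefore required nearly all spots of the longer probe and could hardly show a contrast. With a signal above the floor for dim values, all 3 were counted on 4 CpG and 4 untreated arrays. By the flag, detection on all CpG arrays and at most 1 untreated array was seen in 10 of the 567 mouse miRNAs (1.76%), and the opposite pattern in 0. Of all mouse miRNAs, 311 (54.9%) were detected on 0 arrays. The CpG arrays had 213 to 236 mouse miRNAs detected each, and the untreated arrays 191 to 203. The passenger arms miR-200a*, miR-200b*, miR-200c* and miR-141*, the strands that are usually degraded, were not detected on any array.

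The detection flag was set by a probe's signal relative to its error. Over all 4616 combinations of miRNA and array, viral probes included, a miRNA was flagged in the 1684 where its best probe exceeded 3 times its error and in no other. The best probe of miR-200b stood at 5.30, 5.30, 5.05 and 6.67 times its error on CpG replicates 1 to 4, against 4.16, 6.15, 4.11 and 6.69 on untreated replicates 1 to 4. All 8 values cleared the limit and the groups overlapped. For miR-200c the ratios were 4.14, 4.92, 4.11 and 4.37 on the CpG arrays, against 2.77, 4.39, 2.98 and 2.42 on the untreated arrays. For miR-141 they were 3.94, 4.86, 3.63 and 4.17 on the CpG arrays, against 2.40, 3.79, 2.99 and 2.55 on the untreated arrays. Untreated replicate 3 therefore fell just short of the limit of 3 for both. Its error was larger than that of untreated replicate 2. miR-200c had a total gene signal of 6.24 with an error of 2.29 on untreated replicate 3 and of 6.85 with an error of 1.52 on untreated replicate 2. The median error of the members was 1.99 ± 0.189 units with CpG and 1.81 ± 0.352 untreated (SD, n = 4 each, exact permutation p = 0.43), whereas the CpG arrays were brighter as given above, and the part of that brightness in the detection of miR-200c and miR-141 was not tested. miR-200a reached at most 2.75 and miR-429 at most 2.91 times its error.

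**Figure D1:**
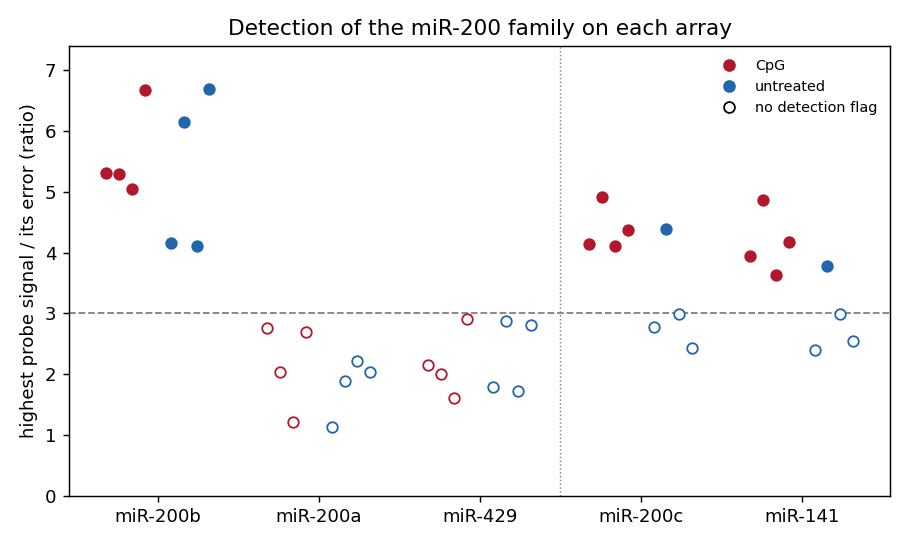
Highest ratio of probe signal to its error for each family member (vertical axis) on the 4 CpG arrays (red, left) and the 4 untreated arrays (blue, right). Open circles have no detection flag, the dashed line is the limit of 3, and the dotted line parts the chromosome 4 members from those of chromosome 6. miR-200c and miR-141 lie above the line on all CpG arrays and on 1 untreated array.

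The signal came mainly from one probe per detected member. For miR-200b the probe with a 17-base target (mm9, chromosome 4, 155429794 to 155429810) read 13.3 ± 3.60 units with CpG and 11.2 ± 2.71 untreated (SD, n = 4 each), and the probe with a 16-base target 1.15 ± 0.88 with CpG and 1.25 ± 0.78 untreated. The longer target gave 91.1% of the signal of miR-200b, 95.8% of that of miR-141, 78.0% of that of miR-200c and 89.2% of that of miR-200a, but 49.0% of that of miR-429. The probes of miR-429 differed little, at 3.82 ± 1.28 with CpG and 3.64 ± 0.33 untreated for the 19-base target and 3.75 ± 1.68 with CpG and 4.01 ± 0.85 untreated for the 18-base target (SD, n = 4 each). The 95th percentile of the negative control spots was 2.02 to 4.33 units on the CpG arrays and 2.80 to 3.79 on the untreated arrays. The longer probe of miR-200b lay above it on all 8 arrays, at 8.43 units or more. Of its spots, 33 of 39 with CpG and 28 of 40 untreated were well above background by the scanner's own flag. The counts were 16 of 39 with CpG and 3 of 38 untreated for the longer probe of miR-200c, and 11 of 37 with CpG and 3 of 38 untreated for that of miR-141.

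**Figure D2:**
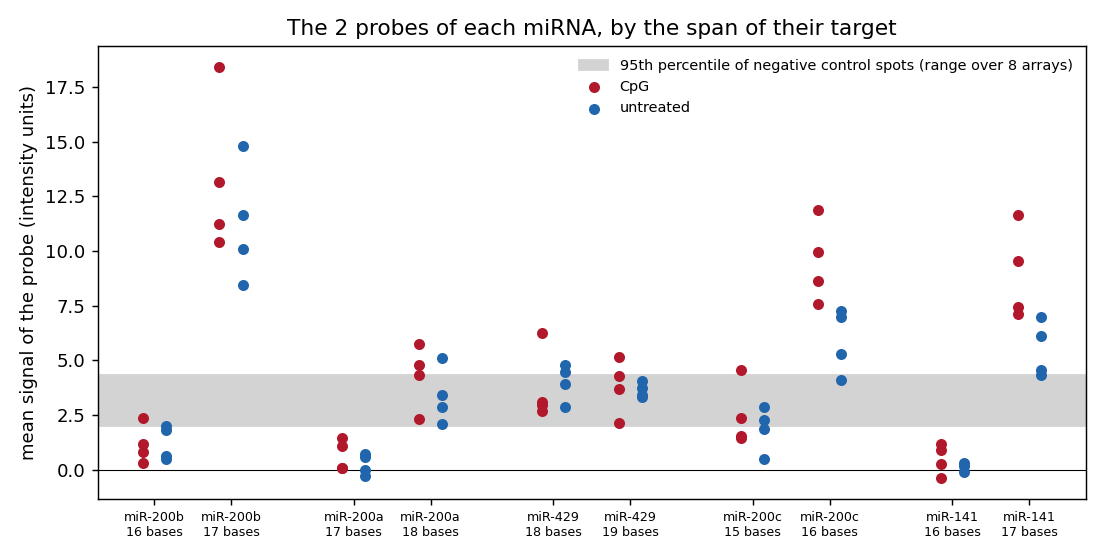
Mean signal of each probe in intensity units (vertical axis) on the 4 CpG arrays (red, left) and 4 untreated arrays (blue, right), by the number of bases in the probe's target. The grey band is the range over arrays of the 95th percentile of negative control spots. The longer probes of miR-200b, miR-200c and miR-141 stand above the band or at its upper edge, and their shorter probes mostly in or below it.

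As deposited, without scaling between arrays, the longer probes of miR-200c and miR-141 read higher on every CpG array than on any untreated one. The longer probe of miR-200c read 7.60 to 11.9 units on the CpG arrays and 4.10 to 7.26 on the untreated arrays, and that of miR-141 7.13 to 11.6 on the CpG arrays and 4.31 to 6.98 on the untreated arrays. Averaged over both probes, the signal of miR-200c was 4.57, 8.21, 5.03 and 6.15 units on CpG replicates 1 to 4, against 2.89, 5.07, 4.42 and 3.17 on untreated replicates 1 to 4. That of miR-141 was 3.37, 6.26, 4.29 and 4.90 units on the CpG arrays, against 2.22, 3.19, 3.57 and 2.29 on the untreated arrays. In both, CpG replicate 2 was highest and the lowest CpG array lay below the highest untreated one. miR-200c averaged 5.99 ± 1.62 units with CpG and 3.89 ± 1.03 untreated, and miR-141 4.71 ± 1.21 with CpG and 2.82 ± 0.668 untreated (SD, n = 4 each, exact permutation p = 0.0857 and 0.0571). No fold is given, since only 1 of the 4 untreated arrays had a detected value for either. The background is high on this scale, where 88 of the 212 miRNAs tested were called higher (41.5%) and 0 lower, with a median log2 difference of 0.60. With the total gene signal, also unscaled, 93 were called higher (43.9%). Both miRNAs entered the 212 only through their detection on the CpG arrays, so their place in that fit (limma adjusted p = 0.0435 for miR-141 and 0.0761 for miR-200c) is given as a description. Of the 212, 84 (39.6%) had all CpG arrays above all untreated ones.

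Scaled to each array's 75th percentile, neither miRNA of the chromosome 6 cluster was separated by treatment. On this log2 scale the array's own 75th percentile stands at 0. miR-200c was at -5.10, -4.94, -5.16 and -5.51 on CpG replicates 1 to 4, against -5.13, -4.62, -5.02 and -5.24 on untreated replicates 1 to 4. miR-141 was at -5.54, -5.33, -5.39 and -5.84 with CpG, against -5.51, -5.28, -5.33 and -5.72 untreated. The groups overlapped in both. Both entered this fit, too, only through their detection on the CpG arrays, with a detected value on 1 of the 4 untreated arrays. Its values are therefore given as a description. The log2 difference of CpG minus untreated was -0.17 for miR-200c (SE 0.18, 95% interval -0.59 to 0.24, limma adjusted p = 0.47) and -0.06 for miR-141 (SE 0.17, 95% interval -0.43 to 0.31, limma adjusted p = 0.78). The median over the 212 tested miRNAs was -0.19 on this scale, with 75 (35.4%) above 0, so that miR-200c lay 0.02 and miR-141 0.13 above that median. The scaling assumes that the bulk of miRNA does not change, and whether RNA input or labelling differed between groups was not tested. In RNA taken from many cells at once, fewer expressing cells and less miRNA per cell cannot be told apart.

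miR-200b, the member detected throughout, had a lower scaled signal with CpG without passing the threshold. Its processed signal was 5.61, 7.16, 5.77 and 10.4 units on CpG replicates 1 to 4, against 4.47, 6.83, 5.36 and 8.31 on untreated replicates 1 to 4, with overlap between the groups. Scaled, it was at -4.80, -5.14, -4.96 and -4.75 with CpG, against -4.50, -4.19, -4.74 and -3.86 untreated. All CpG arrays lay below all untreated ones, narrowly so for CpG replicate 4 and untreated replicate 3. The log2 difference was -0.59 (SE 0.20, 95% interval -1.05 to -0.14, limma adjusted p = 0.0764), with means of -4.91 ± 0.17 with CpG and -4.32 ± 0.39 untreated (SD, n = 4 each). Among the 212 tested miRNAs 42 (19.8%) had all CpG arrays below all untreated ones and 15 (7.08%) all above, 57 in all (26.9%). At an adjusted p of 0.05, 30 (14.2%) were called, 16 higher (7.55%) and 14 lower (6.6%), with 0 of the 3 tested members among them. Of these members, miR-200c and miR-141 were tested only because of their detection on the CpG arrays. The unadjusted p of miR-200b was 0.016 in the limma fit, where 85 miRNAs (40.1%) had one under 0.05. Leaving out 1 array moved the difference between -0.71 (without untreated replicate 3, limma adjusted p = 0.048) and -0.37 (without untreated replicate 4, limma adjusted p = 0.35). Within slide rows, each holding 2 CpG and 2 untreated arrays, its difference was -0.60 and -0.58. Without scaling the difference was 0.21 (limma adjusted p = 0.48), a 1.15-fold higher signal with CpG.

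miR-200a and miR-429, the undetected partners of miR-200b, were too dim to be tested with the other miRNAs. The signal of miR-429 was 3.32, 3.48, 2.62 and 5.71 units on CpG replicates 1 to 4, against 3.1, 4.10, 3.65 and 4.44 on untreated replicates 1 to 4. On the scaled log2 scale miR-429 lay at -5.56, -6.18, -6.10 and -5.62 with CpG, against -5.03, -4.92, -5.30 and -4.76 untreated, with no overlap (exact permutation p = 0.0286, the smallest possible and unadjusted). In this direction, 42 of the 212 tested miRNAs (19.8%), which do not include miR-429, also had no overlap. With all 567 miRNAs in the fit miR-429 did not pass (limma adjusted p = 0.0936). Without scaling it averaged 3.78 ± 1.34 units with CpG and 3.82 ± 0.58 untreated (SD, n = 4 each), with overlap (exact permutation p = 0.86). The 75th percentile that divides the signal did not itself overlap between the groups (157 to 280.5 units with CpG, 101 to 144 untreated). Dividing by it lowers a signal alike in both groups on the CpG arrays, so the scaled p is given as a description. No size of difference is read from these values, since neither group had a detected value. miR-200a was at -6.01, -6.55, -6.55 and -6.28 with CpG, against -6.55, -6.44, -5.67 and -5.87 untreated (exact permutation p = 0.46), where -6.55 is the floor set for dim values.

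**Figure D3:**
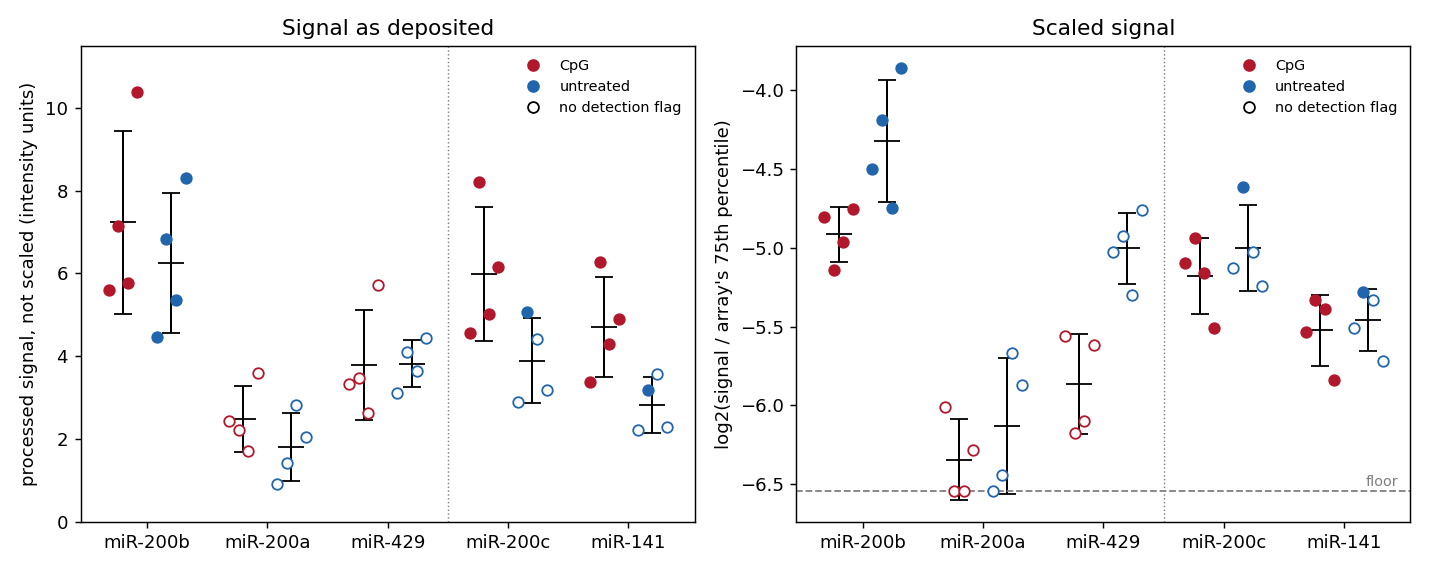
Signal of each family member on the 4 CpG arrays (red, left) and 4 untreated arrays (blue, right), as deposited in intensity units (left panel) and as log2 of the signal over the array's 75th percentile (right panel), with mean and SD in black and open circles for values without a detection flag. For miR-200c and miR-141 the CpG arrays read mostly higher in the left panel and overlap the untreated ones in the right panel. For miR-200b the groups overlap in the left panel and part in the right one.

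Other scalings and probe summaries moved the members together with the rest of the miRNAs. miR-200b lay below the median of all tested miRNAs with every scaling or summary drawn, and miR-141 above it in all but quantile normalization, where it was at -0.13 and the median at -0.11. miR-200c was positive without scaling (0.62), after scaling by median of ratios (0.07) and when the brightest probe stood for each miRNA (0.02), where the medians were 0.60, 0.05 and -0.06. The ratio of miR-200b to miR-200c within an array does not depend on scaling. Its log2 value was 0.26 ± 0.39 with CpG (range -0.20 to 0.76) and 0.68 ± 0.49 untreated (range 0.28 to 1.39, SD, n = 4 each), so that the groups overlapped.

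**Figure D4:**
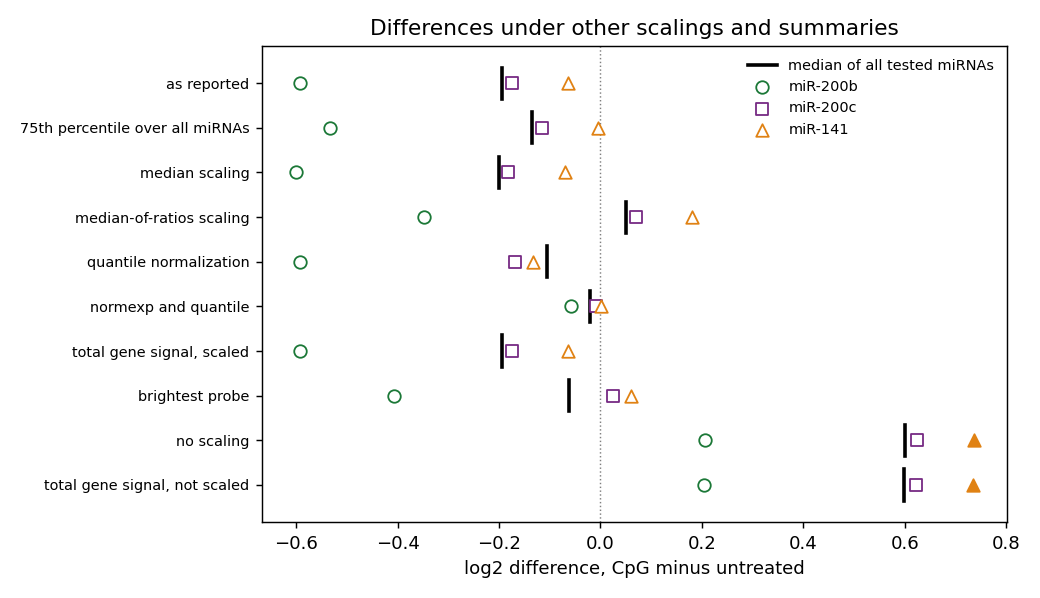
Log2 difference of CpG minus untreated (horizontal axis) for miR-200b (circles), miR-200c (squares) and miR-141 (triangles) with each scaling or probe summary (rows), with the median of all tested miRNAs as a black bar and filled symbols for an adjusted p under 0.05. Without scaling the symbols move to the right together with the median, and miR-141 alone is filled, in the 2 bottom rows. In these rows 41.5% and 43.9% of the 212 tested miRNAs were called higher. miR-141 and miR-200c were tested only through their detection on the CpG arrays, so their symbols are descriptions.

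Across the 8 arrays, the 2 highest correlations among the 10 pairs of members were within clusters, and the pairs most alike in sequence had lower ones. These correlations are descriptions over arrays that share the 2 groups, the slide and each array's brightness. Scaled log2 signals of miR-200c and miR-141 correlated with r = 0.86, and of miR-200b and miR-429 with r = 0.92. Across clusters, r was 0.10 for miR-200b with miR-200c, which share the seed and 20 of 22 bases, and -0.22 for miR-200a with miR-141, which do so too. With each group's mean removed, r was 0.87 for miR-200c with miR-141, 0.82 for miR-200b with miR-429, and -0.28 for miR-200b with miR-200c. Without scaling and with group means removed, the values were 0.94, 0.90 and 0.35. miR-200a and miR-429 were detected on 0 of 8 arrays, so their correlations rest on signals below the detection limit. Scaled, miR-200a correlated with its cluster partners miR-200b and miR-429 at r = 0.31 and 0.40, and at 0.09 and 0.23 with group means removed. Without scaling and with group means kept, it correlated with miR-200b at r = 0.62, miR-429 at 0.54 and miR-141 at 0.56. miR-200b and miR-429 share both cluster and seed, so that this pair cannot tell the 2 apart. Whether cluster or sequence has a part in any of these correlations was not tested. On untreated replicate 4, for one, miR-200b had its highest untreated signal (8.31 units) and miR-200c its second lowest (3.17 units).

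**Figure D5:**
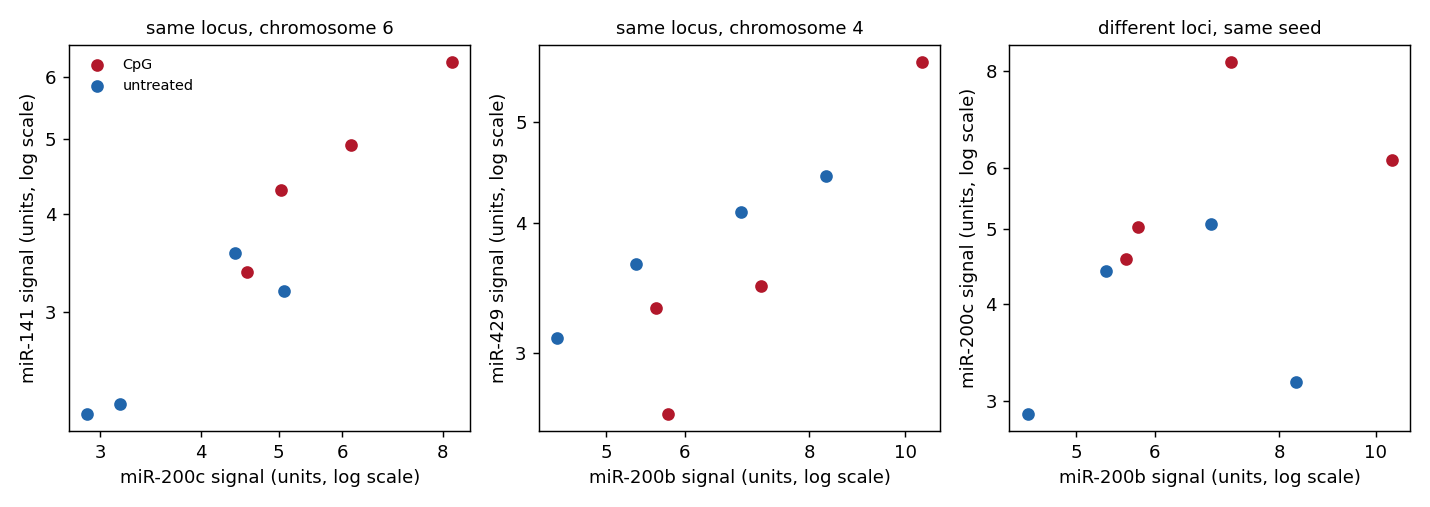
Unscaled signals of member pairs on the 8 arrays in intensity units, on log axes, with CpG arrays in red and untreated arrays in blue. miR-200c and miR-141 vary together (left), as do miR-200b and miR-429 (middle), while miR-200b and miR-200c scatter more widely (right). miR-429 had no detection flag on any array.

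Among all 212 tested miRNAs, the one whose scaled signal was most like that of miR-200c over the 8 arrays was miR-141, and the reverse also held. The next were miR-296-5p (r = 0.77) and miR-685 (r = 0.64) for miR-200c, and miR-296-5p (r = 0.54) and miR-714 (r = 0.45) for miR-141. For miR-200b they were miR-378 (r = 0.97), miR-26a (r = 0.91) and miR-92a (r = 0.91).

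Of 9 other epithelial miRNAs listed, 4 were detected on 0 arrays, beside 54.9% of all mouse miRNAs, and 5 on at least 1 array. Of the 3 that entered the fit, miR-192 was called lower on the scaled signal, as were 6.6% of all 212. Without scaling, 0 of the 212 were called lower. miR-194 did not pass, and miR-96 is described separately. miR-203, miR-205, miR-215 and miR-375, which mark skin, gut or glandular epithelium, were not detected on any array. miR-192 and miR-194, which are co-transcribed and abundant in gut and liver, were detected on all 8 arrays. miR-192 was at -3.75 ± 0.10 with CpG and -3.14 ± 0.21 untreated (SD, n = 4 each, log2 difference -0.62, limma adjusted p = 0.0284). miR-194 was at -4.06 ± 0.16 with CpG and -3.80 ± 0.20 untreated and did not pass (log2 difference -0.26, limma adjusted p = 0.21). miR-96, of the sensory-organ and epithelial cluster miR-183, miR-96 and miR-182, was detected on 4 of 4 CpG and 0 of 4 untreated arrays. It lay at -4.12 ± 0.40 with CpG and -5.17 ± 0.50 untreated (SD, n = 4 each). Having entered the fit only through its detection on the CpG arrays (limma adjusted p = 0.0375), it is described without a call, and no fold is given because its untreated values were not detected. Its cluster partners miR-183 and miR-182 were each detected on 2 CpG arrays and 0 untreated arrays. Of miRNAs of other tissues, miR-206 of muscle was detected on 3 CpG arrays and 0 untreated arrays, and the other 4 listed on 0 arrays.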

How the data were processed

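Per the file headers, the deposited scanner files came from Agilent Feature Extraction 9.5.3.1. Their processed signal is a spot's intensity with background and spatial trend removed and no scaling between arrays. A summary per array, also deposited, gives each miRNA's total gene signal and whether it was detected. The authors' series table repeats the total gene signal of 260 miRNAs, 3 of them family members (2080 of 2080 values equal within 0.1%). limma is named in the submitters' processing notes.

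Here, spots without outlier flags were averaged per probe and then per miRNA, divided by the array's 75th percentile over the 177 miRNAs detected on all arrays, raised to a floor of 0.0107 (log2 of -6.55), and put on a log2 scale. The 212 mouse miRNAs detected on at least 3 arrays of a group were tested with limma 3.58.1 in R 4.3.3 (lmFit, eBayes, two-sided, Benjamini-Hochberg over 212, threshold 0.05). Dimmer members had an exact two-sided permutation test. The fit was tested on simulated data. Named were the members, their passenger arms, detected miRNAs of the epithelial list, and the 3 miRNAs most correlated with each member detected on at least 4 arrays. miR-10b, miR-206 and the undetected epithelial miRNAs were named after their values were seen. Members and lists were chosen with earlier results of these data known. The number of arrays limits the precision. miR-199a-3p, a listed stromal miRNA, had no entry of that name. The main fit did not pair arrays by replicate number. The authors' column names give the same numbers to untreated and CpG arrays, without saying whether these mark a shared culture. All 5 members matched RefSeq by name. Figures were drawn with matplotlib 3.10.9 under Python 3.11.15.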

Additional observations from a re-analysis of the deposited data

How the results depend on the processing

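Among 25 alternatives, the count of 30 calls became 88 without scaling and 93 with the unscaled total gene signal (all higher), 18 with median scaling, 19 with quantile normalization, 12 with normexp and quantile, 16 with the brightest probe, 48 with a floor 2 times higher, 3 with no filter, 6 without the 2 brightest CpG arrays, and 5 to 71 when 1 array was left out (5 without untreated replicate 2, 7 without CpG replicate 3, 71 without CpG replicate 1). The share of higher calls was 53.3% as reported, 69.6% when all miRNAs set the 75th percentile, 77.3% with median-of-ratios scaling, 75% with the brightest probe, 100% for both unscaled signals, 29.2% with the higher floor, 36.4% with limma's trend and robust options, 40% for miRNAs detected on all arrays and 42.1% with the replicate block. Median-of-ratios scaling and the setting without the brightest CpG arrays were chosen after seeing the data.

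miR-200b kept its direction and stayed short of the threshold in 22 of 25. It was 0.21 without scaling and 0.20 with the unscaled total gene signal, and -0.71 to -0.37 when 1 array was left out (without untreated replicates 3 and 4). miR-200c kept both in 20 of 24, with 0.62 for both unscaled signals, 0.024 with the brightest probe and 0.070 with median-of-ratios scaling. It was -0.25 to -0.05 when 1 array was left out. miR-141 kept both in 17 of 24. It was 0.74 without scaling (limma adjusted p = 0.0435), 0.73 with the unscaled total gene signal (0.0383), 0.0015 with normexp and quantile, 0.060 with the brightest probe, 0.18 with median-of-ratios scaling, and -0.13 to 0.042 when 1 array was left out. miR-200a was 0.23 and 0.22 unscaled and 0 with the higher floor, where all its values sat on it. The undetected miR-429 had only an unadjusted exact permutation p as reported (0.0286), and its differences are of signals below detection. That p was above 0.05 without scaling (-0.063) and with the unscaled total gene signal (-0.064). It was also above 0.05 with normexp and quantile (-0.058) and with the brightest probe (-0.0028). The same held in 3 of 8 permutation tests without 1 array (-0.97 to -0.71 over all 8). With no filter, miR-429 was at -0.86 with a limma adjusted p = 0.0936 in place of the permutation test. Without the 2 brightest CpG arrays miR-429 was at -0.83 with an exact permutation p = 0.0667. That is the smallest p that 2 against 4 arrays allow, so that this setting could not fall under 0.05. With the replicate block 38 were called, and miR-200b stayed at -0.59 (limma adjusted p = 0.0668), so that no call of a member changed. Deviations of same-numbered arrays from their group means correlated at -0.26 to 0.28, which does not settle whether these arrays shared a culture.

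Counted by at least 50% of the spots well above background, members detected per array averaged 0.25 with CpG and 0.5 untreated, where the flag gave 3 with CpG and 1.5 untreated. The chromosome 4 cluster then had 1 detection with CpG and 2 untreated (by the flag 4 and 4), and the chromosome 6 cluster 0 with CpG and 0 untreated (by the flag 8 with CpG and 2 untreated). Counted by a signal above the floor, members averaged 4.5 with CpG and 4.75 untreated, with 10 and 11 detections for chromosome 4 and 8 in each group for chromosome 6. The 50% rule pooled the spots of both probes, and the shorter probes of miR-200b, miR-200c and miR-141 had 0 spots well above background. For these 3 members the 50% rule therefore required nearly all spots of the longer probe and could hardly show a contrast. No other cause of these shifts was tested. Signals a few times their error limit every value of the family.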
